A study of Arabidopsis thaliana with 15 samples.

Results

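Wild-type (WT) Arabidopsis plants of the fifth generation (Gen5) were compared with WT plants of the first generation (Gen1), to ask which genes and functions differed between controls of one genotype. All 3 Gen5 WT plants (W-5-1, W-5-2 and W-5-3) and all 3 Gen1 WT plants (W-1-1, W-1-3 and W-1-4) of the series entered the comparison, 6 of its 15 plants. Both groups were Col-0 and came from transformation events that were negative for the MSH1-RNAi transgene, so these plants had passed through transformation without carrying the construct. They served as controls for msh1 memory plants (MM), which had lost the transgene and kept an altered phenotype, and for nonmemory plants (NM), transgene-null Gen1 sibs of normal phenotype. No age in days is given, and all plants were taken at bolting after growth on a peat mix in chambers at one day length and temperature. The tissue is called whole plants in the methods, whole rosette in the labels and rosette leaf in a legend. The RNA was processed at one time for both generations according to the study, but no source used here gives the hour of harvest, or says whether Gen1 and Gen5 WT shared a sowing, a seed batch or a parent. Generation, seed source and growth occasion therefore cannot be told apart, and p-values measure the spread between the 3 plants of a group.

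RNA-seq measures the steady-state level of transcripts. In a rosette much of that level follows supply and surroundings. Plants short of phosphate or iron switch on uptake and remobilization genes, clock genes cycle through the day, cold and touch each induce known sets of genes, and Brassicaceae such as Arabidopsis build glucosinolates, sulfur-rich defence compounds, from amino acids. Fewer cells of a type and less RNA per cell cannot be told apart in whole tissue.

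The libraries were deep and alike. Counts over genes ranged from 77169986 to 79202824 per plant in the 15 plants, and the rows for chloroplast and mitochondrial genes held 0 in every plant. Values below are counts normalized by the trimmed mean of M values (TMM) over the 15 plants. Leaf markers took 3.25% of counts in Gen1 WT and 3.11% in Gen5 WT. The summed level of 4 seed markers was at most 10.4 and that of 12 floral organ markers ran from 121 to 149 in these 6 plants. The sum over 8 root markers was 248 to 289 in Gen1 WT and 130 to 199 in Gen5 WT, without overlap, and the sum over 6 markers of the stem's secondary wall overlapped (4354 to 5659 in Gen1 WT, 3662 to 5171 in Gen5 WT). The iron uptake genes IRT1 and FRO2 hold a large part of the root sum.

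Of 19844 genes tested, 2131 (10.7%) were differentially expressed genes (DEGs), meaning a Benjamini-Hochberg adjusted p under 0.05 in edgeR's quasi-likelihood test and an absolute log2 fold change over 0.5. In Gen5 WT, 931 (4.69%) were higher and 1200 (6.05%) lower. The changes were mostly moderate, with 676 DEGs over 1 on the log2 scale, 79 over 2 and 15 over 3. The median log2 fold change of all tested genes was -0.01. DEGs were spread over the 5 chromosomes, with the highest share, 11.5% of tested genes, on chromosome 4. The levels of the 2 groups did not overlap in 2120 of the DEGs, against 44.0% of all tested genes.

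Functions were described with 30 gene lists. They hold 762 genes, of which 703 were tested and 195 (27.7%) were DEGs, and the other 1936 DEGs were outside the lists. The share of DEGs was over the 10.7% background in 26 lists and at or below it in 4. The lists were written with earlier results of these data known, so shares over the background may come from the choice of members. The plot of DEGs by list shows the highest shares of lower genes in the aliphatic glucosinolate (79.2%), indole glucosinolate (58.3%) and iron (51.7%) lists, and the highest shares of higher genes in the touch (48.0%) and cold (47.4%) lists.

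**Figure D1:**
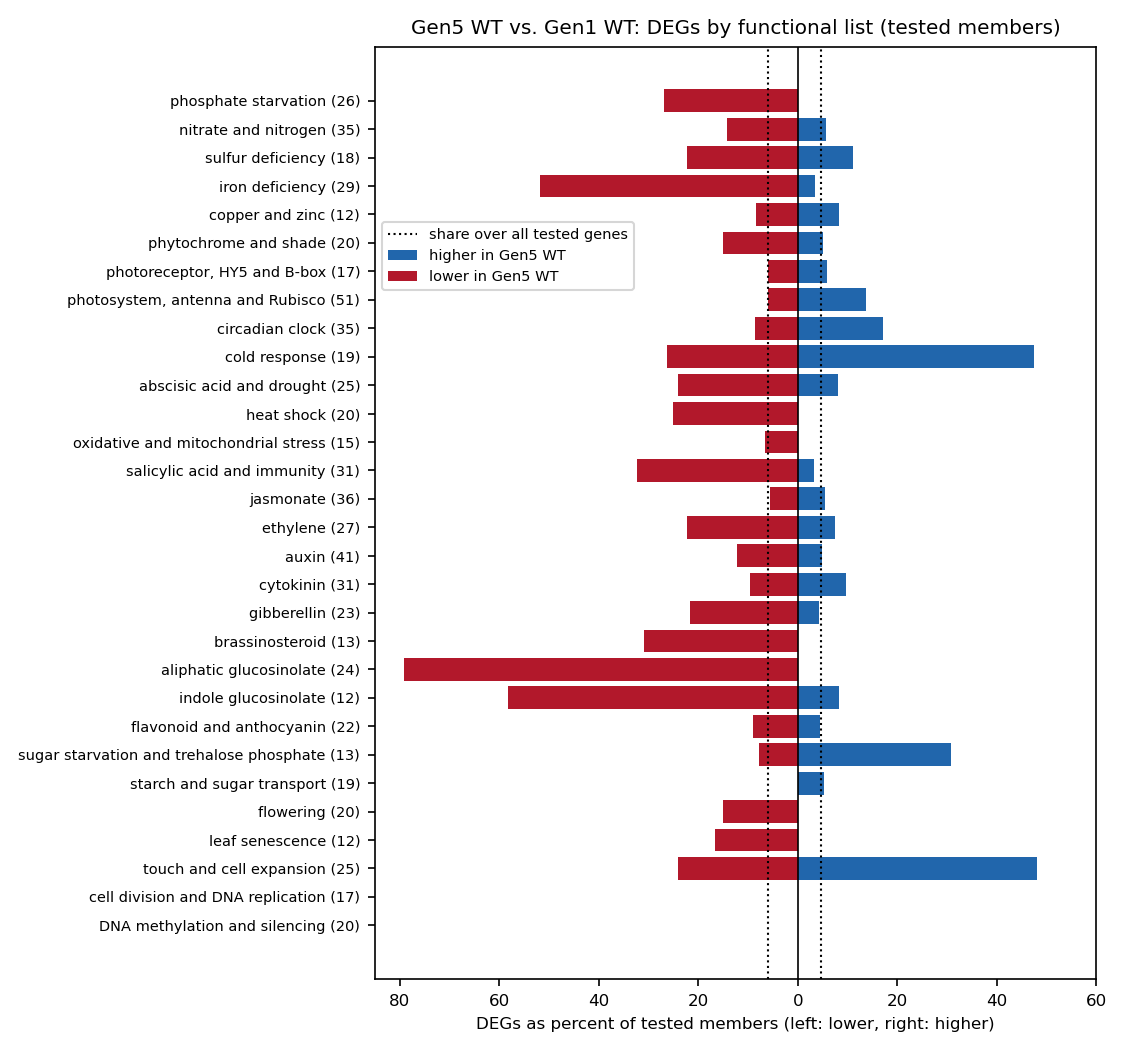
DEGs of Gen5 WT vs. Gen1 WT as percent of the tested members of each of 30 lists (number tested in parentheses), drawn to the right when higher in Gen5 WT and to the left when lower. Dotted lines mark the shares over all tested genes, 4.69% higher and 6.05% lower. Lower members reach 79.2% in the aliphatic glucosinolate list and higher members 48.0% in the touch and cell expansion list.

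Most glucosinolate genes tested were lower in Gen5 WT. Of 24 tested genes of the aliphatic (methionine-derived) branch, 19 fell and 0 rose, with a median log2 fold change of -1.03. Of 12 tested genes of the indole (tryptophan-derived) branch, 7 fell and 1 rose, with a median of -0.61, and the indole branch held 5 DEGs without Gen1 WT replicate 2. Gene names printed beyond a fixed naming rule were chosen after their values were seen.

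MYB28 (AT5G61420) and MYB29 (AT5G07690) encode the transcription factors that switch on the aliphatic branch. MYB28 was at 4419, 3602 and 3975 in Gen1 WT and at 1770, 2204 and 2287 in Gen5 WT. MYB29 was at 1162, 733 and 844 in Gen1 WT and at 257, 302 and 347 in Gen5 WT. Both were lower in each Gen5 plant than in any Gen1 plant, with log2 fold changes of -0.94 (SE 0.11, adjusted p = 0.00151) and -1.60 (SE 0.19, adjusted p = 0.00147). Their relative MYB76 fell by 2.31 on the log2 scale. It did not meet the rule for naming large falls, which asks for a mean of at least 100 and no overlap.

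CYP79F2 (AT1G16400), a cytochrome P450 that starts the core pathway from elongated methionine, was at 463, 400 and 348 in Gen1 WT and at 86.8, 78.7 and 75.5 in Gen5 WT (log2 fold change -2.33, SE 0.15, adjusted p = 0.000240). It was among the 10 largest falls of DEGs with a mean of at least 100 and no overlap. Reads of CYP79F2 and its near-identical neighbour CYP79F1 (log2 fold change -1.11) may be split or lost when only unique matches are kept. SOT18 (AT1G74090), a sulfotransferase of the last step, was at 4717, 4265 and 4312 in Gen1 WT and at 1830, 2036 and 1957 in Gen5 WT (log2 fold change -1.20, SE 0.06, adjusted p = 0.000160). Replicates differed far less than generations here. AT2G31790, which the annotation leaves without a symbol, fell by 0.95 (SE 0.05, adjusted p = 0.000160). BCAT4 and IPMI1, of methionine chain elongation, fell by 1.31 and 1.37.

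In the indole branch, CYP79B2 (AT4G39950) and CYP79B3 (AT2G22330) turn tryptophan into its oxime. CYP79B2 was at 3228, 2510 and 2257 in Gen1 WT and at 1011, 856 and 830 in Gen5 WT (log2 fold change -1.57, SE 0.14, adjusted p = 0.000556). CYP79B3 was at 6458, 5554 and 6295 in Gen1 WT and at 2792, 3316 and 3027 in Gen5 WT (log2 fold change -1.01, SE 0.08, adjusted p = 0.000454). The groups were well apart for both genes. MYB51, a regulator of the indole branch, fell less (log2 fold change -0.58, SE 0.17, adjusted p = 0.0430), and this call was lost when any one of Gen1 WT replicates 1 and 2 and Gen5 WT replicates 2 and 3 was left out (largest adjusted p 0.122). The one rise was CYP81F2 (log2 fold change 0.92), which modifies indole glucosinolates.

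Most DEGs of the iron list were lower as well. The list mixes genes induced when iron is short with others, such as ferritin genes of iron storage. Its count and median therefore do not measure one response. Of 29 tested members, 15 fell and 1 rose, with a median log2 fold change of -0.71. The list held 10 DEGs without Gen1 WT replicate 1 and 7 with all 15 plants in one fit. BHLH38 (AT3G56970) and BHLH100 (AT2G41240) belong to a group of bHLH factors induced when iron is short. BHLH38 was at 7666, 6912 and 5631 in Gen1 WT and at 2868, 3920 and 1211 in Gen5 WT (log2 fold change -1.34, SE 0.36, adjusted p = 0.0328). BHLH100 was at 28100, 24810 and 22400 in Gen1 WT and at 13200, 15620 and 5472 in Gen5 WT (log2 fold change -1.14, SE 0.33, adjusted p = 0.0426). The third Gen5 plant was the lowest for both, and the groups did not overlap, but each call was lost in some of the fits that left out 1 plant (3 of 6 for BHLH38, 4 of 6 for BHLH100, with largest adjusted p of 0.0871 and 0.108). BHLH39 and BHLH101 also fell (log2 fold changes -1.34 and -1.503).

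PYE (AT3G47640), a bHLH regulator of iron homeostasis, was steadier, at 3208, 2918 and 2667 in Gen1 WT and at 1188, 1145 and 814 in Gen5 WT (log2 fold change -1.49, SE 0.14, adjusted p = 0.000670). FRO7 (AT5G49740), the chloroplast ferric reductase, was at 11010, 11290 and 8891 in Gen1 WT and at 5003, 4841 and 4977 in Gen5 WT (log2 fold change -1.08, SE 0.09, adjusted p = 0.000476). In both genes every Gen5 plant lay below every Gen1 plant. NAS4, which makes the iron chelator nicotianamine, fell by 1.35, OPT3, a transporter of iron in the phloem, by 0.66, and BTS, an iron-binding E3 ligase, by 0.55. The root uptake genes on the list did not pass the test: IRT1 had a mean of 46.7 in Gen1 WT and 10.9 in Gen5 WT (adjusted p = 0.0635) and FRO2 121 and 73.6 (adjusted p = 0.122). Root markers were lower in sum in Gen5 WT, as given above. IRT1 and FRO2 are counted among them and hold a large part of that sum, so it is not separate from the iron list. Of the 3 root markers tested, 0 were DEGs. The part of root tissue in the change of the iron list was not tested. PYE, FRO7, NAS4 and the bHLH genes are not among those markers, which does not show where in the plant they were expressed.

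The exception was NEET (AT5G51720), an iron-sulfur protein of plastids and mitochondria. It was at 49.9, 24.0 and 38.5 in Gen1 WT and at 253, 224 and 952 in Gen5 WT (log2 fold change 3.66, SE 0.65, adjusted p = 0.00696). This was the second largest rise among DEGs with a mean of at least 100 and no overlap. One Gen5 plant was far above the other two. The copper and zinc list gave 1 rise and 1 fall among 12 tested genes (16.7%, beside the 10.7% background). FSD1 (AT4G25100), the iron superoxide dismutase, rose from 12950, 12150 and 14250 to 20490, 16150 and 28340 (log2 fold change 0.72, SE 0.19, adjusted p = 0.0284), a call lost in 4 of 6 fits with 1 plant left out. YSL2 (AT5G24380), a transporter of metal-nicotianamine complexes, fell by 0.87 (SE 0.09, adjusted p = 0.000970). CSD2, a copper/zinc superoxide dismutase, had a log2 fold change of 0.47 and did not pass (adjusted p = 0.0660).

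DEGs of the phosphate-starvation list all moved one way. Not every member of the list, PHO2 for one, is a gene induced by starvation. Of 26 tested members 7 fell and 0 rose, and the median log2 fold change was -0.31. SPX1 (AT5G20150), a phosphate sensor that holds back the starvation response and is itself induced by starvation, was at 6396, 4436 and 3577 in Gen1 WT and at 716, 620 and 666 in Gen5 WT (log2 fold change -2.85, SE 0.21, adjusted p = 0.000335). SRG3 (AT3G02040), a glycerophosphodiester phosphodiesterase, was at 4184, 3924 and 4081 in Gen1 WT and at 1262, 1390 and 1429 in Gen5 WT (log2 fold change -1.58, SE 0.06, adjusted p = 0.000160). The mean of SPX1 was 7.19 times as high in Gen1 WT as in Gen5 WT, and no plant overlapped. PPCK1, PS2, PAP17, SPX2 and PHO2 fell by 0.55 to 1.46. SPX3, a marker of stronger starvation, was near 0 in all 6 plants (0.96 to 7.51) and was not tested, and IPS1 had a mean of 0.31 in Gen1 WT and 0 in Gen5 WT.

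The P1BS element, GNATATNC, is the site that starvation regulators of the PHR1 family are known to bind. It was searched on both strands from 250 bases before to 50 after each annotated gene start in TAIR10.1. It was present in 17 of 36 listed phosphate genes (47.2%), in 4 of the 7 that fell, and in 6.23% of all 32546 annotated nuclear promoters. SRG3, with the lowest adjusted p of the list, is shown because it holds 2 matches before its start, 119 and 55 bases from it. The 250 bases before the start (chr3:350011-350260, minus strand, TAIR10.1) are printed with the P1BS matches in capitals.
SRG3: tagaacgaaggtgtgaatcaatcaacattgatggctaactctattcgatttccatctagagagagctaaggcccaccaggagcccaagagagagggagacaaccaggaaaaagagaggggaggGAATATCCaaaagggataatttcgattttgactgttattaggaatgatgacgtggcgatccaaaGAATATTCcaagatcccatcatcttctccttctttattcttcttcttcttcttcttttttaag

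Nitrogen and sulfur genes changed in both directions. Of 35 tested nitrate and nitrogen genes 5 fell and 2 rose. The nitrate reductases NIA1 and NIA2 did not pass the test, NIA2 lying at 100300, 110200 and 100900 in Gen1 WT and at 105200, 97570 and 106700 in Gen5 WT. LBD37 (AT5G67420), a repressor of nitrogen-responsive genes, fell from 14530, 13350 and 12510 to 7672, 6360 and 6164 (log2 fold change -1.01, SE 0.10, adjusted p = 0.000660), and AT1G68670 fell by 0.75 (SE 0.07, adjusted p = 0.000653). The nitrate transporter NRT1.8 rose by 2.36 from a low level. Of 18 sulfur-deficiency genes 4 fell and 2 rose (33.3%). APR1 (AT4G04610), which reduces activated sulfate, fell from 35040, 32380 and 33040 to 17820, 15340 and 16560 (log2 fold change -1.02, SE 0.07, adjusted p = 0.000276). AT1G04770, which stands in the list as SDI2, fell by 1.09 (SE 0.10, adjusted p = 0.000504). The sulfur-deficiency genes SDI1 (log2 fold change 0.13) and LSU1 (-0.48) did not pass (adjusted p = 0.425 and 0.0916).

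**Figure D2:**
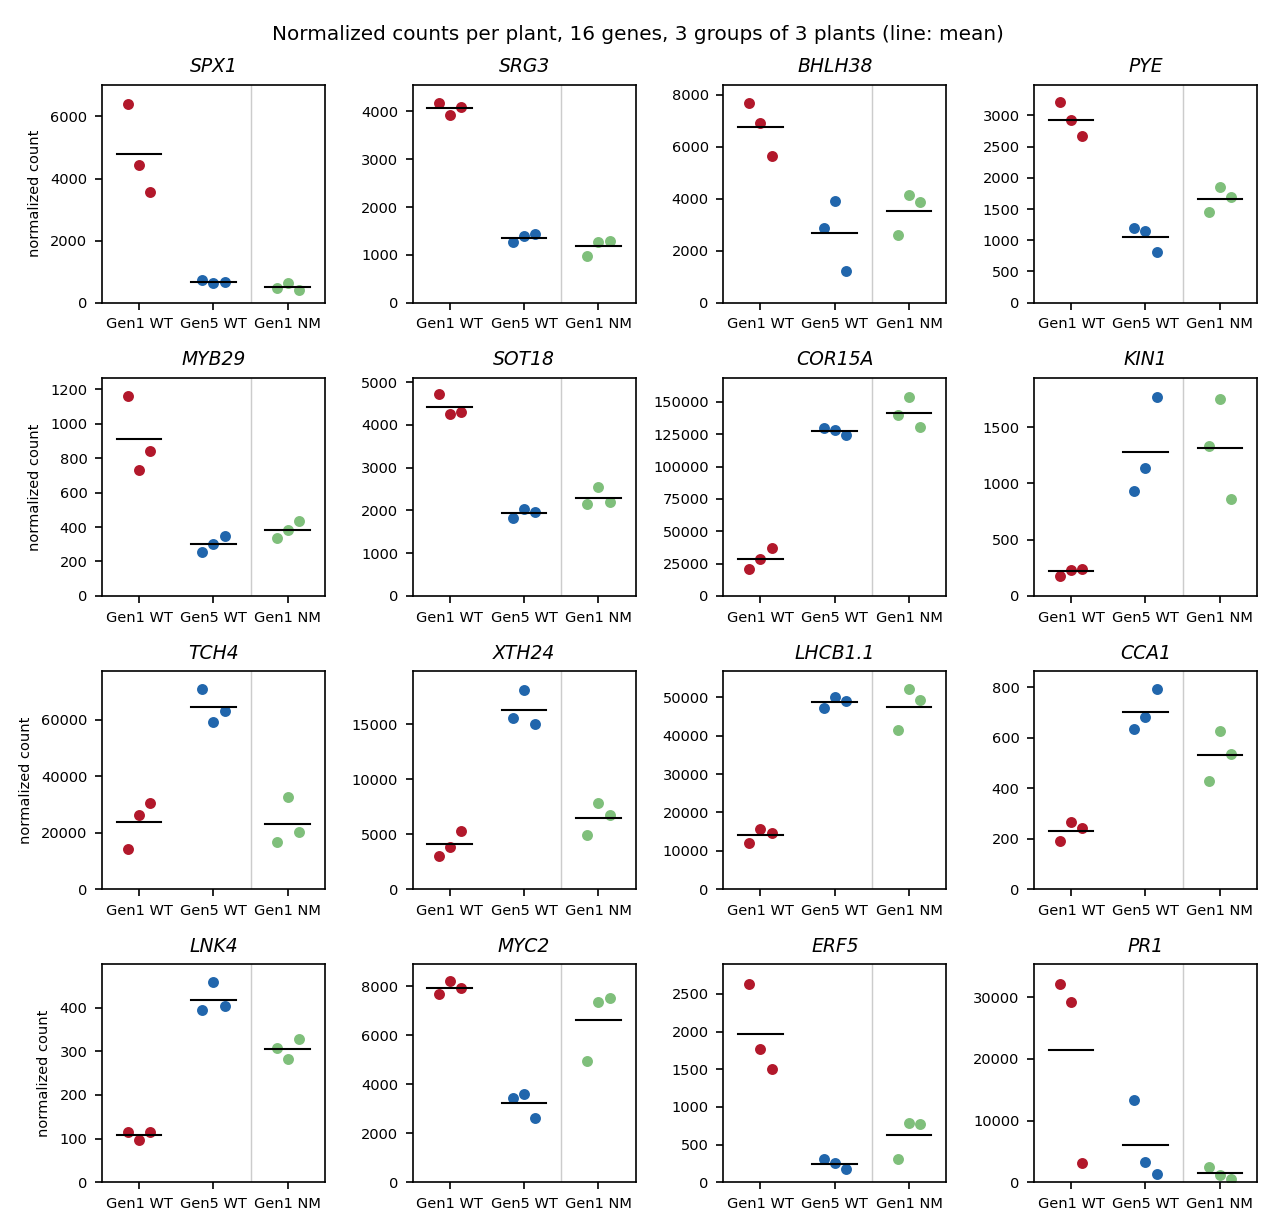
Normalized counts of 16 genes in each plant of Gen1 WT, Gen5 WT and Gen1 NM, on linear axes from 0, with a line at the mean of 3 plants. Except for PR1, where the WT groups overlap, all Gen5 WT plants lie on one side of all Gen1 WT plants. SPX1, SRG3, COR15A and LHCB1.1 of Gen1 NM lie near Gen5 WT, whereas TCH4 and MYC2 of Gen1 NM lie near Gen1 WT.

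Cold-responsive genes changed in both directions. Of 19 tested members 9 rose and 5 fell, and the median log2 fold change was 0.50. COR15A (AT2G42540), a chloroplast protein that protects membranes during freezing, was at 21070, 28300 and 36760 in Gen1 WT and at 129900, 128400 and 124400 in Gen5 WT (log2 fold change 2.15, SE 0.18, adjusted p = 0.000483). Its tandem copy COR15B (AT2G42530) was at 7910, 9836 and 9769 in Gen1 WT and at 28170, 27830 and 25110 in Gen5 WT (log2 fold change 1.55, SE 0.10, adjusted p = 0.000230). KIN1 (AT5G15960), a small cold-induced protein, was at 181, 232 and 243 in Gen1 WT and at 930, 1137 and 1767 in Gen5 WT (log2 fold change 2.54, SE 0.25, adjusted p = 0.000755). All Gen5 plants were above all Gen1 plants in these genes, which have close relatives that share reads (KIN1 with KIN2, log2 fold change 0.73). LTI30, a dehydrin, and GOLS3, a galactinol synthase, rose by 1.27 and 2.01, whereas GOLS2, of the same enzyme family, had a log2 fold change of -1.04 and fell.

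The CBF genes encode the factors that turn on COR genes in the cold. CBF1 (AT4G25490) was at 36.7, 32.6 and 107 in Gen1 WT and at 9.87, 9.48 and 17.7 in Gen5 WT (log2 fold change -2.25, SE 0.56, adjusted p = 0.0246), a call lost without Gen5 WT replicate 1 or without Gen5 WT replicate 2 (largest adjusted p 0.0917). CBF3 fell by 2.00. CBF2 was at 48.9, 95.8 and 226 in Gen1 WT and at 58.2, 40.8 and 12.8 in Gen5 WT, with overlap, and did not pass (log2 fold change -1.73, SE 0.65, adjusted p = 0.0912), although DESeq2 called it (adjusted p = 0.0142). ZAT10 and ZAT12, zinc finger repressors of stress responses, fell by 1.88 and 1.62. CBF1 and CBF3 thus fell while COR genes, their known targets, rose.

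The core of the element that CBF factors are known to bind, CCGAC, was found on either strand in 7 of 19 listed cold genes (36.8%), in 7 of the 14 DEGs among them, and in 14.9% of all promoters of the same length. Of the DEGs with the motif, ZAT10 and GOLS2 fell and the others rose. COR15B and KIN1, which also rose, held 0 matches. COR15A is shown because it had the lowest adjusted p among cold DEGs with the motif. Its matches lie 137 and 74 bases before the start (chr2:17712331-17712580, minus strand, TAIR10.1), with CCGAC or its reverse complement in capitals.
COR15A: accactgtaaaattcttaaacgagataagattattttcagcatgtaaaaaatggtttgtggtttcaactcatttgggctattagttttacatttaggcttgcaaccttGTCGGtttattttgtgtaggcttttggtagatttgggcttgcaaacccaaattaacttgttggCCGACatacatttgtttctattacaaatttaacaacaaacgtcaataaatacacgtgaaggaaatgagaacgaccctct

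Touch and cell-expansion genes also split. Of 25 tested members 12 rose and 6 fell, with a median log2 fold change of 0.62. The rises were mostly xyloglucan endotransglucosylases (XTH), which remodel cell walls. TCH4 (AT5G57560), the touch-induced XTH, was at 14350, 26160 and 30650 in Gen1 WT and at 70780, 59340 and 63110 in Gen5 WT (log2 fold change 1.44, SE 0.25, adjusted p = 0.00613). XTH24 (AT4G30270) was at 3047, 3851 and 5314 in Gen1 WT and at 15600, 18130 and 15040 in Gen5 WT (log2 fold change 1.99, SE 0.19, adjusted p = 0.000695). XTH33 (AT1G10550) was at 80.01, 151 and 344 in Gen1 WT and at 1155, 969 and 1503 in Gen5 WT (log2 fold change 2.65, SE 0.45, adjusted p = 0.00575). The first Gen1 plant was the lowest and the third the highest among Gen1 plants for all of these, yet below every Gen5 plant. XTH4, XTH9, XTH16, XTH18 and XTH25 rose by 1.21 to 1.53, and EXO, a growth gene responsive to brassinosteroid, by 1.67.

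The calmodulin-like genes on the list went both ways. CML9 (AT3G51920) rose from 7038, 7173 and 6368 to 11740, 11570 and 10420 (log2 fold change 0.71, SE 0.07, adjusted p = 0.000716). CML37 (AT5G42380), a wound-induced calcium sensor, fell from 1368, 1225 and 381 to 227, 220 and 149 (log2 fold change -2.32, SE 0.45, adjusted p = 0.00964). TCH2, a further touch-induced calmodulin-like gene, overlapped and did not pass (log2 fold change -0.31, adjusted p = 0.0919). Of the expansins, EXPA5 rose by 0.62 and EXPA1, EXPA3, EXPA4 and EXPA8 fell by 0.53 to 1.03.

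Light-related genes changed in a few places. Of 51 tested photosystem, antenna and Rubisco genes 7 rose and 3 fell (19.6%, beside the 10.7% background), and the median log2 fold change was 0.06. The rises were mainly antenna proteins, which bind chlorophyll. LHCB1.1 (AT1G29920) was at 11950, 15590 and 14540 in Gen1 WT and at 47230, 49970 and 48930 in Gen5 WT (log2 fold change 1.79, SE 0.10, adjusted p = 0.000179). LHCB1.2 (AT1G29910) was at 71950, 68790 and 80370 in Gen1 WT and at 157700, 166800 and 163600 in Gen5 WT (log2 fold change 1.14, SE 0.07, adjusted p = 0.000253). LHCB1.3 was higher in every Gen5 plant (log2 fold change 0.33) but did not pass (adjusted p = 0.0710). These 3 genes are near-identical neighbours, so unique mapping can shift counts among them and their separate values are uncertain. LHCB2.1 rose by 1.17, and the small Rubisco subunit gene RBCS1A overlapped (log2 fold change -0.11, adjusted p = 0.431).

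Of 20 phytochrome and shade genes 3 fell and 1 rose, with 1 DEG left without Gen1 WT replicate 1. PIF4 (log2 fold change 0.45) and PIF5 (0.20), factors of shade growth, stayed under the fold-change threshold, PIF4 with an adjusted p of 0.0298. ATHB2 (AT4G16780), a shade-induced homeobox gene, fell from 2837, 2637 and 3005 to 2028, 1957 and 1797 (log2 fold change -0.56, SE 0.07, adjusted p = 0.00152), and PAR1, a repressor of shade growth, rose by 0.86 (adjusted p = 0.0250), a call kept in only 1 of 6 fits with 1 plant left out. Of 17 photoreceptor, HY5 and B-box genes 1 rose and 1 fell (11.8%, close to the 10.7% background). HY5 overlapped (log2 fold change 0.07), BBX22 (AT1G78600) rose from 920, 936 and 863 to 2025, 2137 and 1444 (log2 fold change 1.04, SE 0.14, adjusted p = 0.00222), and ELIP1, a light-stress protein, fell by 0.76 (adjusted p = 0.0328), a call lost in 3 of 6 such fits.

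Clock genes gave 6 rises and 3 falls among 35 tested (25.7%, beside the 10.7% background), with a median log2 fold change of 0.07. CCA1 (AT2G46830), a morning factor of the core clock, was at 192, 265 and 241 in Gen1 WT and at 634, 681 and 794 in Gen5 WT (log2 fold change 1.59, SE 0.14, adjusted p = 0.000559). Its partner LHY was at 193, 294 and 253 in Gen1 WT and at 273, 260 and 321 in Gen5 WT, with overlap (log2 fold change 0.20, SE 0.17, adjusted p = 0.424). The pair thus differed in outcome, though the difference between them was not tested. LNK2 (AT3G54500) and LNK4 (AT5G06980), coactivators and relatives in the morning loop, rose from 851, 1013 and 939 to 2094, 2099 and 2030 (log2 fold change 1.14, SE 0.07, adjusted p = 0.000229) and from 115, 97.8 and 115 to 394, 457 and 403 (log2 fold change 1.93, SE 0.12, adjusted p = 0.000242). COR27 and GRP7, evening-phased outputs, rose by 0.75 and 0.54, and CO, the photoperiod regulator of flowering, fell by 1.14. TOC1 (log2 fold change 0.07), GI (-0.13) and PRR7 (-0.12) did not pass.

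The evening element, AAAATATCT, was present in 11 of 35 clock genes (31.4%), in 2 of the 9 DEGs among them, and in 2.64% of all promoters. It was also present in 5.69% of the genes higher in Gen5 WT and in 2.83% of those lower.

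Defence genes of the salicylic acid list were mostly lower in Gen5 WT, with wide spread among plants. Of 31 tested members 10 fell and 1 rose, and the median log2 fold change was -0.78. PR1 (AT2G14610), the standard marker of the response, was at 32060, 29220 and 3106 in Gen1 WT and at 13400, 3339 and 1401 in Gen5 WT, so that the third Gen1 plant lay within the Gen5 range. PR2 was at 82760, 80790 and 23000 in Gen1 WT and at 49840, 21150 and 14190 in Gen5 WT. Neither passed the test (log2 fold change -1.84, SE 0.98, adjusted p = 0.212 for PR1, and -1.14, SE 0.57, adjusted p = 0.188 for PR2). ICS1, which makes the salicylic acid precursor, and PBS3, which acts after it, fell by 1.19 and 1.87. Without Gen1 WT replicate 3 the list held 21 DEGs, and without Gen1 WT replicate 1 it held 6.

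Of its WRKY factors, WRKY70 (AT3G56400) was at 43950, 42520 and 43780 in Gen1 WT and at 31490, 26490 and 24870 in Gen5 WT (log2 fold change -0.66, SE 0.09, adjusted p = 0.00224). WRKY46 and WRKY53 fell by 1.97 and 1.67. WRKY18 (AT4G31800) was the only rise, from 8211, 10280 and 7215 to 25550, 22610 and 19040 (log2 fold change 1.38, SE 0.15, adjusted p = 0.00101), against the direction of its list.

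Ethylene genes gave 6 falls and 2 rises among 27 tested (29.6%, beside the 10.7% background). ERF5 (AT5G47230), an ethylene response factor induced early by stress, was at 2631, 1763 and 1505 in Gen1 WT and at 308, 260 and 173 in Gen5 WT (log2 fold change -3.001, SE 0.27, adjusted p = 0.000544). ACS6 (AT4G11280), an enzyme of ethylene synthesis, was at 7905, 9480 and 10030 in Gen1 WT and at 3017, 2828 and 2517 in Gen5 WT (log2 fold change -1.72, SE 0.10, adjusted p = 0.000229). No plant overlapped in either gene. ERF104 and ERF105 fell by 2.097 and 1.84. EBF2, an F-box protein that targets ethylene's transcription factors for degradation, rose by 0.59 (adjusted p = 0.0169), a call lost in 4 of 6 fits with 1 plant left out.

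ORA47, DLAH and ERF13 were also among the 10 largest falls of DEGs with a mean of at least 100 and no overlap. ORA47 (AT1G74930), a jasmonate-linked AP2/ERF factor, was at 1259, 1063 and 1686 in Gen1 WT and at 82.9, 65.5 and 29.4 in Gen5 WT, the largest fall among those DEGs (log2 fold change -4.50, SE 0.32, adjusted p = 0.000318). ERF13 (AT2G44840) fell by 2.24 (SE 0.38, adjusted p = 0.00586) and DLAH (AT1G30370), an acylhydrolase, by 2.95 (SE 0.45, adjusted p = 0.00381). BAP1 (AT3G61190), an inhibitor of cell death, was at 1039, 928 and 665 in Gen1 WT and at 263, 199 and 161 in Gen5 WT (log2 fold change -2.09, SE 0.22, adjusted p = 0.000910). It was the 1 DEG among 15 oxidative and mitochondrial stress genes (6.67%, beside the 10.7% background). AOX1A, the alternative oxidase, had an adjusted p of 0.0109 with a log2 fold change of 0.34, under the fold threshold.

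The jasmonate list itself was nearly even, with 2 rises and 2 falls among 36 tested (11.1%, close to the 10.7% background). MYC2 (AT1G32640), its main factor, was at 7704, 8203 and 7949 in Gen1 WT and at 3450, 3610 and 2630 in Gen5 WT (log2 fold change -1.31, SE 0.11, adjusted p = 0.000483). JAZ6 (AT1G72450), a repressor of MYC2, was at 6296, 8013 and 8747 in Gen1 WT and at 12020, 13050 and 11880 in Gen5 WT (log2 fold change 0.67, SE 0.11, adjusted p = 0.00564). LOX2 and VSP1, an enzyme of jasmonate synthesis and a late marker, did not pass (log2 fold changes -0.07 and 0.63, adjusted p = 0.595 and 0.0948), although DESeq2 called VSP1 (adjusted p = 0.0204).

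Abscisic acid and drought genes gave 6 falls and 2 rises among 25 (32.0%, beside the 10.7% background), with 5 DEGs without Gen5 WT replicate 2. ABI1 (AT4G26080), a phosphatase that holds back the signal, was at 6203, 6046 and 6767 in Gen1 WT and at 3545, 3435 and 3528 in Gen5 WT (log2 fold change -0.86, SE 0.05, adjusted p = 0.000242). RD26 (AT4G27410), a NAC factor of drought, was at 3895, 4367 and 4820 in Gen1 WT and at 2554, 2207 and 1992 in Gen5 WT (log2 fold change -0.96, SE 0.11, adjusted p = 0.00108). NCED3, the synthesis enzyme induced by drought, overlapped (log2 fold change -0.55, adjusted p = 0.289). The hydroxylases that break down the hormone diverged, CYP707A1 rising by 1.41 and CYP707A3 falling by 1.38. Heat-shock genes gave 5 falls and 0 rises among 20, with 3 DEGs without Gen1 WT replicate 1 or with all 15 plants in one fit. Among them were HSFB2A (AT5G62020), a heat-shock factor, and MBF1C, a coactivator, which fell by 1.11 (SE 0.16, adjusted p = 0.00291) and 0.69 (SE 0.09, adjusted p = 0.00178), the call of MBF1C being lost with all 15 plants in one fit (adjusted p = 0.0522), while HSP101 and HSFA2 overlapped.

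Growth hormone lists held single strong changes. ARR6 (AT5G62920), a response regulator induced by cytokinin, was at 77.2, 93.9 and 77.0 in Gen1 WT and at 300.0, 354 and 436 in Gen5 WT (log2 fold change 2.13, SE 0.18, adjusted p = 0.000461), whereas its close relative ARR5 overlapped (log2 fold change -0.11, adjusted p = 0.415). AHK4 (AT2G01830), a cytokinin receptor, fell by 0.83 (SE 0.10, adjusted p = 0.00129) and IPT3, of cytokinin synthesis, also fell (-1.397). The cytokinin list had 3 rises and 3 falls among 31 genes (19.4%, beside the 10.7% background).

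Auxin genes gave 5 falls and 2 rises among 41 (17.1%, beside the 10.7% background), with 4 DEGs without Gen1 WT replicate 1. AFB3 (AT1G12820), an auxin receptor, was at 4840, 4196 and 4477 in Gen1 WT and at 2286, 2399 and 2563 in Gen5 WT (log2 fold change -0.90, SE 0.07, adjusted p = 0.000403). IAA1 (AT4G14560), an early auxin-induced repressor, fell by 1.18 (SE 0.13, adjusted p = 0.00115). IAA29 fell by 1.15 (adjusted p = 0.0410), a call kept in only 1 of 6 fits with 1 plant left out, and IAA19 had a log2 fold change of 0.03 (adjusted p = 0.941).

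Gibberellin genes gave 5 falls and 1 rise among 23 (26.1%, beside the 10.7% background), and brassinosteroid genes 4 falls and 0 rises among 13 (30.8%). The gibberellin list held only 2 DEGs without Gen5 WT replicate 3 and at most 4 with any plant left out. The gibberellin receptors GID1A (AT3G05120) and GID1B fell by 0.63 (SE 0.07, adjusted p = 0.00110) and 0.67 (SE 0.17, adjusted p = 0.0282), the second call being lost in 4 of 6 fits with 1 plant left out. The synthesis genes GA20OX1 and GA3OX1 were lower in every Gen5 plant and did not pass (adjusted p = 0.0729 and 0.0544), although DESeq2 called GA20OX1 (adjusted p = 0.0249). BAS1 (AT2G26710), which inactivates brassinosteroids, fell from 753, 707 and 970 to 376, 412 and 448 (log2 fold change -0.98, SE 0.14, adjusted p = 0.00253), and BKI1, an inhibitor of their receptor, by 0.55 (SE 0.06, adjusted p = 0.00103). DWF4, of synthesis, had a log2 fold change of 0.29 with an adjusted p of 0.0360, and CPD overlapped.

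The carbon, flowering and ageing lists held few DEGs, but they are short. DEGs made up 38.5% of the sugar genes tested and 5.26% of the starch and sugar transport genes, beside the 10.7% background. DIN10 (AT5G20250), induced in darkness and by sugar shortage, was at 15320, 25220 and 26030 in Gen1 WT and at 58530, 60020 and 57310 in Gen5 WT (log2 fold change 1.396, SE 0.18, adjusted p = 0.00213), one of 4 rises and 1 fall among 13 sugar genes (3 DEGs without Gen1 WT replicate 1). TPS10, of the trehalose phosphate family, rose by 0.76 (SE 0.06, adjusted p = 0.000405), KMD4, a Kelch-repeat F-box protein, fell by 0.88 (SE 0.08, adjusted p = 0.000532), and SEN1 overlapped. GBSS1, the granule-bound starch synthase, rose by 0.60 (adjusted p = 0.0113) and was the 1 DEG among 19 starch and sugar transport genes, whereas APL3 (log2 fold change -0.35) stayed under the fold threshold. This call was lost without Gen1 WT replicate 3.

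FT (AT1G65480), the mobile flowering signal, was at 375, 456 and 524 in Gen1 WT and at 271, 192 and 250 in Gen5 WT (log2 fold change -0.93, SE 0.17, adjusted p = 0.00747). FUL and AGL24, MADS-box genes of the floral transition, fell by 0.77 (adjusted p = 0.00487, but 0.0625 with all 15 plants in one fit) and 0.55 (adjusted p = 0.00402), the latter call being lost without Gen1 WT replicate 1 or Gen5 WT replicate 1, and SOC1 overlapped (log2 fold change -0.08). These were the 3 DEGs among 20 flowering genes. Among 12 senescence genes NAP (AT1G69490) and NAC046, NAC factors of leaf ageing, fell by 1.64 (SE 0.39, adjusted p = 0.0199) and 0.72 (SE 0.15, adjusted p = 0.0131), calls that were lost in 3 of 6 and 1 of 6 fits with 1 plant left out. NAP and NAC046 were the only DEGs of the senescence list (16.7% of its tested members, beside the same background). SAG13 overlapped and SAG12 had no count in any of the 6 plants.

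Flavonoid genes gave 2 falls and 1 rise among 22 (13.6%, near the 10.7% background). The falls were MYB111 (AT5G49330), a flavonol regulator (log2 fold change -1.16, SE 0.14, adjusted p = 0.00147), and MYBL2, a repressor (log2 fold change -0.70, SE 0.15, adjusted p = 0.0129), the first call being lost with all 15 plants in one fit (adjusted p = 0.0966) and the second without Gen5 WT replicate 2 (adjusted p = 0.0562), while the pathway genes CHS and DFR overlapped. There was 0 DEG among 17 cell division genes, and 0 among 20 genes of DNA methylation and silencing (0.0% each, beside the 10.7% background). Lists this short would hold few DEGs at the background share, so these counts say little. MSH1, whose suppression founded the memory line, was at 788, 777 and 813 in Gen1 WT and at 652, 759 and 738 in Gen5 WT (log2 fold change -0.15, SE 0.08, adjusted p = 0.197). MET1, the CG methyltransferase, had a log2 fold change of 0.12 (adjusted p = 0.121).

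The remaining large changes picked by the naming rule (DEGs with a mean of at least 100 and no overlap) came from genes outside the lists. SLAH3 (AT5G24030), an anion channel of the guard cell and root, was at 351, 1191 and 1402 in Gen1 WT and at 10680, 9034 and 10170 in Gen5 WT (log2 fold change 3.34, SE 0.43, adjusted p = 0.00204). CNGC14 (AT2G24610), annotated as a cyclic nucleotide-gated channel, rose by 2.53 (SE 0.35, adjusted p = 0.00246). Among genes without a symbol, AT4G16563 was at 405, 595 and 906 in Gen1 WT and at 6276, 6426 and 8839 in Gen5 WT (log2 fold change 3.49, SE 0.29, adjusted p = 0.000446), and AT2G31010, AT1G66060 and AT1G71000 rose by 2.44, 3.29 and 2.95. Each was above all Gen1 WT plants in all Gen5 WT plants, as the rule for naming the largest rises required. BT5 (AT4G37610), a BTB and TAZ domain protein, was at 5645, 5405 and 5046 in Gen1 WT and at 1312, 979 and 803 in Gen5 WT (log2 fold change -2.39, SE 0.16, adjusted p = 0.000256). RTFL12 (AT4G13395), of a family of small growth-limiting peptides, fell by 3.02 (SE 0.40, adjusted p = 0.00214), and ASG8 (AT2G40475) by 2.12 (SE 0.15, adjusted p = 0.000276).

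The largest rise under the same rule, AT1G75945 (chr1:28515245-28515916, minus strand, TAIR10.1), was at 32.9, 36.4 and 20.7 in Gen1 WT and at 781, 696 and 575 in Gen5 WT (log2 fold change 4.50, SE 0.21, adjusted p = 0.000160). Among Gen1 NM plants it was at 76.2, 735 and 14.5. It therefore took both levels within one group of sibs.

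Memory plants gave the same contrast of generations in other material. In Gen5 MM vs. Gen1 MM, 0 of 19704 genes were called by edgeR (0.0%), with 352 genes at an unadjusted p under 0.05, and DESeq2 called 6. Replicates mostly differed more in memory plants. The chi-square per degree of freedom between plants of a group was 30.72 to 116.8 in memory plants and 12.35 to 52.79 in WT. A wider spread makes calls less likely, so 0 calls do not show that the memory generations were alike. A test of the difference between the generation effects of WT and memory plants, an interaction over 12 plants, called 1217 of 20183 genes (6.03%) at an adjusted p under 0.05. Leaving out any one of Gen1 WT replicates 1 and 2 and Gen5 WT replicates 1 and 2 lowered this to 695 to 773. It called 17 of the aliphatic glucosinolate genes, all more negative in WT, and 4 of the indole genes. It called 5 cold genes as more positive in WT and 2 as more negative, and for touch genes 6 and 2. For iron genes it called only 1, and the median log2 fold change of the iron list was -0.53 in memory plants beside -0.71 in WT. In memory plants BHLH38 and BHLH100 had log2 fold changes of -1.99 and -2.21, neither of which passed the test. For the salicylic acid list it called 1 gene, WRKY18, and the medians were -0.34 in memory plants and -0.78 in WT. The phosphate list had 3 such genes, among them SPX1, whose interaction was -2.92 (SE 0.30, adjusted p = 0.000692).

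**Figure D3:**
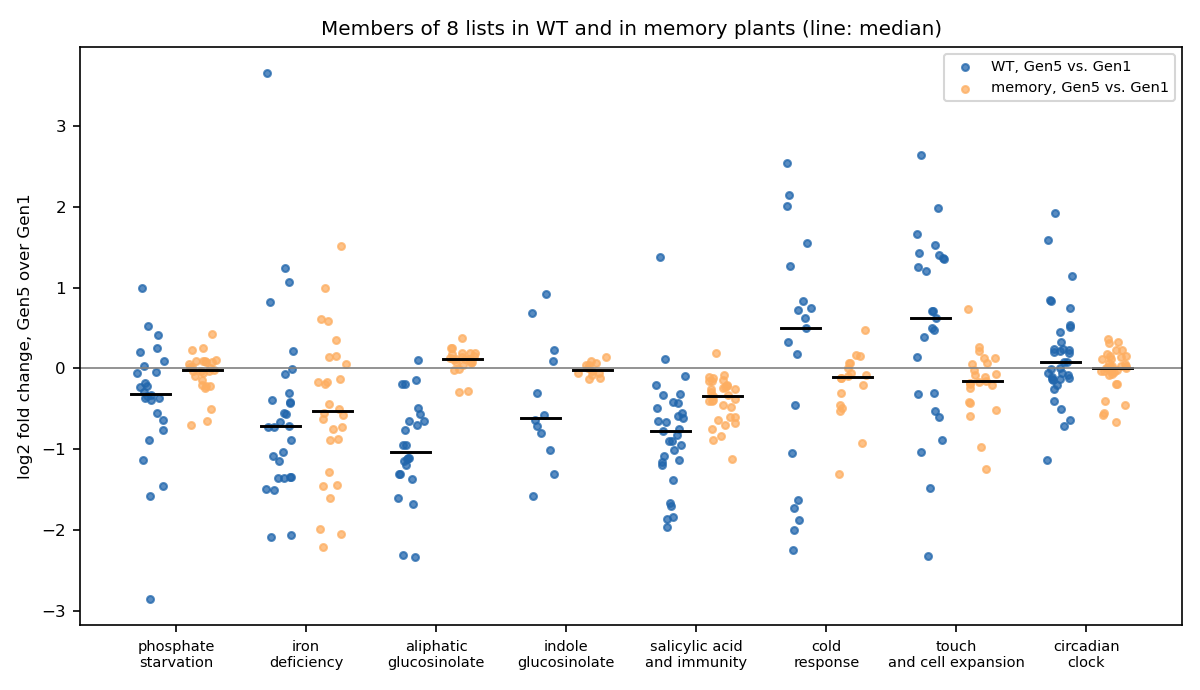
Log2 fold change of Gen5 over Gen1 for each tested member of 8 lists, in WT plants and in memory plants, with a line at the median. Aliphatic glucosinolate genes have a median of -1.03 in WT and 0.12 in memory plants, cold genes 0.50 and -0.11, and iron genes -0.71 and -0.53.

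Gen1 nonmemory plants gave a second view, since they are of the same generation as Gen1 WT. Gen1 NM vs. Gen1 WT gave 1527 DEGs of 19815 (7.71%, made up of 2.82% higher and 4.89% lower in Gen1 NM), with 917 without Gen1 NM replicate 3, 963 without Gen1 WT replicate 1 and 969 without Gen1 WT replicate 2. Gen5 WT vs. Gen1 NM gave 335 of 19739 (1.7%, made up of 1.12% higher and 0.578% lower in Gen5 WT), with 211 without Gen5 WT replicate 1 and 115 without Gen5 WT replicate 2. The first comparison shares the Gen1 WT plants and the second the Gen5 WT plants with the comparison of generations, so the 3 sets of values are set side by side and not as separate evidence. On the plot of principal components, PC2 (11.8% of variance) placed Gen1 WT at 17.0 to 38.2, Gen1 NM at -17.1 to -10.7 and Gen5 WT at -21.0 to -3.47. Gen1 WT thus stood apart from both other transgene-free groups of normal phenotype on that axis. The third Gen1 WT plant (W-1-4) lay closest to them.

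**Figure D4:**
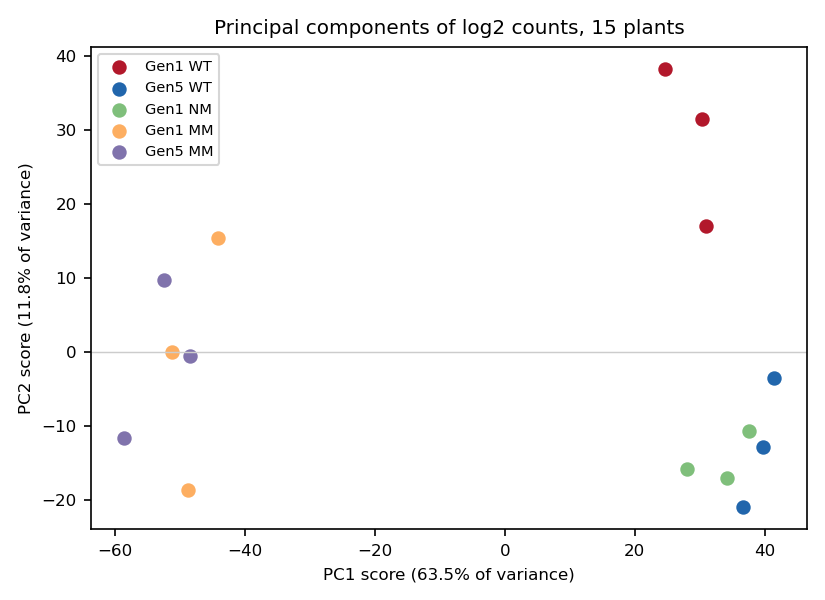
Scores of the 15 plants on the first 2 principal components of log2 normalized counts, which hold 63.5% and 11.8% of the variance. PC1 separates the 6 memory plants from the rest, and on PC2 the 3 Gen1 WT plants, at 17.0 to 38.2, lie above all Gen5 WT and Gen1 NM plants.

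By list, Gen1 NM vs. Gen1 WT had 20 aliphatic glucosinolate genes lower and 0 higher, 14 iron genes lower and 1 higher, 13 salicylic acid genes lower and 0 higher, and 7 phosphate genes lower and 1 higher. Cold genes had 8 higher and 1 lower. In that comparison SPX1 had a log2 fold change of -3.26, LHCB1.1 of 1.76 and CCA1 of 1.19. The touch list differed from this, with 4 higher and 0 lower in Gen1 NM vs. Gen1 WT and 7 higher and 2 lower in Gen5 WT vs. Gen1 NM. TCH4, MYC2 and WRKY18 had log2 fold changes of -0.03, -0.27 and -0.05 in Gen1 NM vs. Gen1 WT, and ARR6 was higher in Gen1 NM (1285, 729 and 2059) than in either WT group.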

How the data were processed

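RNA from whole plants or rosettes was sequenced from TruSeq libraries. Reads were aligned by the authors with STAR 2.7.0a to TAIR10, according to the submitters' processing notes, kept when uniquely mapped and counted per gene with QoRTs. The authors deposited these raw counts, 1 table per plant, without normalization or pooling. The kit does not mark strand, so overlapping and antisense genes cannot be separated. The 32548 nuclear gene rows were used. Rows for organelle genes (285) and other RNA features (1144), and 5 summary lines, were left out. Reads assigned to no feature (0.64% to 0.80% per plant) or to several (0.24% to 0.29%) were not used. Symbols and coordinates came from RefSeq's annotation of TAIR10.1, which held all 32548 genes. Of the 762 list genes 24 had no symbol there and are given by identifier, and 1 listed gene was not analysed here.

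Groups were compared with edgeR 4.0.16 in R 4.3.3 by its quasi-likelihood F test, after TMM scaling and the default filter on low counts (filterByExpr), with Benjamini-Hochberg adjusted p-values, on the plants of the groups compared, SEs being derived from the F statistic. The interaction was called on the adjusted p alone. Genes were named by rule: the 10 largest rises and falls among DEGs with a mean of at least 100 normalized counts and no overlap, 2 lead genes per list, and per list the 2 DEGs with the lowest adjusted p at that mean. The members, lists and rule were chosen with earlier results of these data known. Alternatives were RLE size factors, DESeq2 1.42.0, other filters and thresholds, all 15 plants in one fit, a replicate block, a length and GC offset, and each plant left out. The functions were tested on simulated data. Motifs and plots used Python 3.11.15 and matplotlib 3.10.9. Methylomes were not analysed here. One promoter sequence is not reported here.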

Additional observations from a re-analysis of the deposited data

Results flagged for a closer look

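For 51 of the 124 named genes, the interaction test found that the Gen5 over Gen1 change differed between WT and memory plants (edgeR, adjusted p under 0.05). Values here are WT minus memory, on the log2 scale, and no explanation was tested.

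The difference was positive for the unlisted genes AT1G66060 (3.54), SLAH3 (3.47), AT4G16563 (3.18), AT1G71000 (3.1), CNGC14 (2.96) and AT2G31010 (2.58). Cold and touch genes followed, with KIN1 at 3.05, COR15A at 2.27, COR15B at 1.65 and CML9 at 0.89. Clock and light genes with a positive difference were LNK4 (2.34), LHCB1.1 (2.1), CCA1 (2.06), LHCB1.2 (1.3), LNK2 (1.25) and BBX22 (1.12). The hormone, defence and sugar genes were ARR6 (1.98), WRKY18 (1.74), DIN10 (1.44), TPS10 (0.7) and EBF2 (0.67).

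The difference was negative for glucosinolate genes, with CYP79F2 at -2.29, MYB29 at -1.78, SOT18 at -1.44, CYP79B2 at -1.43, AT2G31790 at -1.02, CYP79B3 at -1.0 and MYB28 at -0.99. Nutrient genes were SPX1 (-2.92), YSL2 (-1.31), LBD37 (-1.12), APR1 (-0.93), AT1G68670 (-0.9), AT1G04770 (-0.89) and FRO7 (-0.87). Stress and defence genes were ERF5 (-2.75), ELIP1 (-1.68), MYC2 (-1.33), HSFB2A (-1.03) and ABI1 (-0.95). Growth hormone genes were IAA29 (-1.61), BAS1 (-1.14), IAA1 (-1.01), AFB3 (-0.82), BKI1 (-0.77) and GID1A (-0.62). The remaining genes were NAP (-2.43), ASG8 (-1.96), BT5 (-1.93), KMD4 (-0.92) and AGL24 (-0.68).

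Counts on the 1144 other RNA features, which entered no comparison, reached 5056 in the highest Gen5 WT plant and lay at 4692 to 5056 in Gen5 WT and 4227 to 4541 in Gen1 WT. These groups did not overlap.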

How the results depend on the processing

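The count of 2131 DEGs stayed within 1839 to 2322 under RLE size factors, DESeq2, other expression filters, a length and GC offset and all 15 plants in one fit. It was 676 (317 higher, 359 lower) with an absolute log2 fold change over 1, and 1363 (721 lower) at an adjusted p under 0.01. With each plant left out it ran from 1674 (without Gen5 WT replicate 2) to 2380 (without Gen1 WT replicate 3), higher genes from 745 to 1100 and lower genes from 918 to 1280. In memory plants the 0 DEGs became 6 with DESeq2 and 1 in the fit of 15 plants, and 0 to 1 with a plant left out. The interaction gave 2023 genes with DESeq2, 428 at an adjusted p under 0.01 and 695 to 1345 with a plant left out. Gen1 NM vs. Gen1 WT gave 515 over a log2 fold change of 1, 659 at 0.01 and 917 to 1875 with a plant left out. Gen5 WT vs. Gen1 NM gave 631 with DESeq2, 170 in the fit of 15 plants, 100 over a log2 fold change of 1, 116 at 0.01 and 115 to 398 with a plant left out. The cause of these shifts was not tested, other than the stricter thresholds themselves.

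Deviations of plants from their group mean correlated at 0.42, -0.09 and 0.52 between same-numbered WT plants of Gen1 and Gen5. Between differently numbered WT plants these correlations ran from -0.54 to 0.27. The titles of the WT plants do not carry the same numbers in both generations, and the main fit did not pair them. The replicate block gave 2406 DEGs, of which 2073 were shared with the unblocked fit. It gave 1236 genes for the interaction, 1463 for Gen1 NM vs. Gen1 WT and 166 for Gen5 WT vs. Gen1 NM.

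Among named genes, direction turned only for genes without a call. With the length and GC offset ARR5 was at 0.017, SOC1 at 0.030 and PCNA1 at -0.030. With a plant left out NIA2 ran from -0.040 to 0.029, HSFA2 from -0.052 to 0.559, IAA19 from -0.131 to 0.294, SEN1 from -0.551 to 0.383, SAG13 from -0.923 to 0.239 and PCNA1 from -0.063 to 0.107. Leaving out 1 plant ended the call of 15 named genes. The fit of 15 plants ended those of MBF1C, MYB111 and FUL, which each fit with 1 plant left out kept. DESeq2 added calls for CBF2, VSP1 and GA20OX1, and the block for PR1, PR2 and GA20OX1. Counting noise was small at this depth, and 3 plants a group limit the precision.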

Other observations

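AT1G75945, the largest rise among DEGs with a mean of at least 100 and no overlap, took 2 ranges of values across the 15 plants. It was at 3.12, 17.97 and 23.4 in Gen1 memory plants and at 309, 482 and 459 in Gen5 memory plants, beside the values given above for WT and nonmemory plants. The interaction for this gene was -0.29 (SE 0.55, adjusted p = 0.826), and the memory comparison did not pass the test (adjusted p = 0.254).

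The W-box, TTGACC or TTGACT on either strand, was present in 37.8% of promoters of genes higher in Gen5 WT, in 27.8% of those lower and in 32.6% of all tested genes. The G-box, CACGTG, was present in 6.87%, 8.58% and 8.73%. These shares are descriptions of 300-base windows.

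Among the DEGs, 2085 were protein coding and 36 long noncoding RNAs, and 1079 had no symbol in the annotation.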
